A study of Mus musculus with 11 samples.

Results

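The clustered histone genes of the mouse were followed through white and beige adipogenesis in cultured preadipocytes. Members were the sense-strand rows of the deposited expression tables that the authors flagged as representative and whose symbol begins with Hist, a cluster number from 1 to 4 and h, which gave 62 of 29955 genes. By the letters that follow, these were 6 H1, 15 H2A, 18 H2B, 11 H3 and 12 H4 genes. In mm9 coordinates, 50 of them belonged to Hist1 on chromosome 13, 8 to Hist2 on chromosome 3, 3 to Hist3 on chromosome 11 and 1 to Hist4 on chromosome 6. RNA-seq was available for 11 samples of im-scWAT, which are mouse preadipocytes of inguinal subcutaneous white fat immortalized by a retrovirus carrying the SV40 large T antigen, so all samples share this viral protein. Of the 6 untransduced samples, 2 were taken at day 0, before differentiation, and carry ROS plus and minus labels although rosiglitazone had not yet been given. The other 4 were taken at day 4 or day 8 of differentiation with an inducing cocktail (indomethacin, dexamethasone, IBMX, insulin and T3), with (ROS plus) or without (ROS minus) 0.5 μM rosiglitazone, a PPARγ ligand, with 1 sample each. The 5 transduced samples, all at day 8 with ROS, carried a retroviral shRNA, driven by the U6 promoter, against the mouse histone demethylase Jmjd1a and re-expressed human JMJD1A from the LTR of another retrovirus, each kept under antibiotic selection. These were WT (samples A and B), S265A (which cannot be phosphorylated at this serine), S265D (phosphomimetic) and S265D-H1120Y (S265D without demethylase activity), the mutants with 1 sample each. The labels have ROS withdrawn 1 day before the end, whereas the study's methods have it kept to day 8. Nothing in the labels says that the day 0 samples or WT A and B came from separate cultures, so the spread within each pair may be technical. The p-values measure only the spread between the samples of a fit, which in some comparisons also holds differences between conditions.

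Clustered histone genes encode the replication-dependent histones that package newly made DNA. Core histones H2A, H2B, H3 and H4 form the nucleosome, and linker histone H1 binds where DNA enters and leaves it. Their messages are made mainly in S phase and, unlike other messages, usually end just after a conserved stem-loop instead of a poly(A) tail. The stem-loop-binding protein SLBP binds this hairpin and, with the U7 ribonucleoprotein, directs cleavage behind it. Some members are also transcribed past the hairpin to a polyadenylation signal, a form known from cells that leave the cell cycle. Whether poly(A) RNA was selected for these libraries is not given in the sources used here.

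The hairpin was looked for first, because the transcript models that carry the FPKM values end on either side of it. The motif searched was the histone stem-loop of 16 bases on the gene's strand (GG, any 3 bases, TTTT, any base, A, any 3 bases and CC, with the first and last 6 bases complementary), within the 100 bases that follow the last coding codon in GENCODE vM1 on the mm9 genome. It was found in 54 of 61 members that GENCODE lists as coding (88.5%) and in 61 of 22756 coding genes in all (0.268%), 58 of which carry such a Hist symbol. It lay a median of 33 bases (24 to 61) after that codon. Only 6 different hairpins were present, the commonest in 33 members. Those of 7 members with high FPKM values are printed with 5 bases on either side, the hairpin in capitals. They lay at chr13:23831381-23831396 (+) for Hist1h1c, chr3:96043707-96043722 (−) for Hist2h2aa2, chr11:58768674-58768689 (+) for Hist3h2a, chr13:23663712-23663727 (+) for Hist1h2bg, chr3:96051250-96051265 (+) for Hist2h3c1, chr13:22132835-22132850 (−) for Hist1h4i and chr13:23623327-23623342 (+) for Hist1h4h.
Hist1h1c: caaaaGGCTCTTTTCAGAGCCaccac
Hist2h2aa2: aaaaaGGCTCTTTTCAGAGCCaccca
Hist3h2a: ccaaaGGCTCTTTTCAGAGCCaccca
Hist1h2bg: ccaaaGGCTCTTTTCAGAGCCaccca
Hist2h3c1: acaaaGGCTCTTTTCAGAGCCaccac
Hist1h4i: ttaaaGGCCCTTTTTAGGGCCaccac
Hist1h4h: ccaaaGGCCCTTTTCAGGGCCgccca
H1, H2A, H2B and H3 members shown here share 1 hairpin, whereas the H4 members have another stem.

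The transcript models fell on both sides of these hairpins. In 32 members the model ended before the hairpin, in 8 within 50 bases after it, and in 14 it ran over 50 bases past it; in 8 no hairpin was found, which includes Hist3h2bb-ps, a member that is not coding in GENCODE. The 14 members with long models held 81.7% of the FPKM summed over members and samples, most of it in Hist1h2bc and Hist1h1c. The model of Hist1h1c, a linker histone gene at chr13:23830676-23832236, ran 840 bases past the hairpin. That of Hist1h2bc, an H2B gene at chr13:23776068-23784349, is spliced and ended 7818 genomic bases past it. The polyadenylation signal AATAAA stood in the last 50 bases of 7 models, those of Hist1h1c, Hist1h1t, Hist1h2ae, Hist1h2bc, Hist1h2bp, Hist2h2be and Hist3h2ba. This is 11.5% of the 61 members, against 56.2% of 19961 other coding rows. These 7 members held 69.8% of the summed FPKM.

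Promoters of 56 members were found in the RefSeq table of GRCm38.p6, from 250 bases before to 50 after the start; Hist1h2bc, Hist2h2be, Hist1h3a, Hist1h3f, Hist2h4 and Hist3h2bb-ps were not among them. CCAAT, the letters of the NF-Y site, was found on either strand in 48 of 56 members and in 41.1% of all 27025 genes with a promoter there. All 45 promoters of H1, H2A, H2B and H3 genes held it, but only 3 of 11 H4 promoters did. The TATA box letters TATAAA were in 32 of 56 members (57.1%, against 15.7% of all genes). ATTTGCAT, the octamer bound by Oct-1, was in 7 of 15 H2A and 7 of 15 H2B promoters and in none of the H1, H3 and H4 promoters, against 1.97% of all genes. The 250 bases before the start are printed for an H1, an H2B and an H4 gene, which differ in the motifs they hold. Whether the motifs go with changes in FPKM was not tested. Capitals mark these motifs on either strand, which do not overlap each other here.
Hist1h1c: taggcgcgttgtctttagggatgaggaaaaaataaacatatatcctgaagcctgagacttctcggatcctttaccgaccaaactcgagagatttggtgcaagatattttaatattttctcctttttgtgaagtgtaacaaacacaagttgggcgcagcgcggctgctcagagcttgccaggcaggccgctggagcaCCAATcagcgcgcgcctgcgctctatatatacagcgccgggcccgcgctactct
Hist1h2bg: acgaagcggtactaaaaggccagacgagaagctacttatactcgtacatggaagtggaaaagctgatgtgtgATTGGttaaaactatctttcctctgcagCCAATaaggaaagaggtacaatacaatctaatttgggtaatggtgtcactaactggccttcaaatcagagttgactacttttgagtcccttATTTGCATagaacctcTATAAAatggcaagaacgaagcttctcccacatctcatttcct
Hist1h4i: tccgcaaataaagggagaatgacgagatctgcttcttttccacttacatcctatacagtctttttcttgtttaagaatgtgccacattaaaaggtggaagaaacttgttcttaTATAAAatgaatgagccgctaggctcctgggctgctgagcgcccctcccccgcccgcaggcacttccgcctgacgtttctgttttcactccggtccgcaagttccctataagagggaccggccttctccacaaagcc
They are the strands of chr13:23738557-23738806 (+), chr13:23571150-23571399 (+) and chr13:22041363-22041612 (−) in GRCm38.p6. The Hist1h2bg promoter holds all 3 motifs, that of Hist1h1c CCAAT alone and that of Hist1h4i TATAAA alone.

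Near-identical copies limit what can be said of single members. All 12 H4 genes encode the same protein in GENCODE, and the 11 H3 genes encode 3 different proteins. The coding sequences of H4 genes, all different, were identical at a median of 93.9% of bases (85.3 to 98.4%). Over the 57 unspliced coding members, a median of 36.2% of the 99-base stretches of a model also occurred on the same strand of another of these 57 models. This share was 1.04% in the median for H1, 48.3% for H2A, 36.5% for H2B, 41.1% for H3 and 30.8% for H4. It was 0% for Hist3h2a and Hist2h2be, 5.13% for Hist1h1c, 21.9% for Hist1h4i, 36.2% for Hist1h2bg and 100% for Hist2h2aa2. The spliced H2B models of Hist1h2bc, Hist1h2be, Hist1h2bp and Hist1h2br were not compared, so stretches shared with them are not counted. Aligned reads were placed by the lowest edit distance, but how a read that fits several copies equally well was counted is not given in the sources used here. Moreover, the 1759 base model of Hist2h3c1 takes in the whole of the H2A gene Hist2h2aa1 (578 bases) on the same strand, and that of Hist1h3d takes in 482 bases of Hist1h2ad, so neither value is that of an H3 gene alone. The GENCODE span of the spliced gene Hist1h2be overlaps the model of Hist1h1e by 497 bases on the same strand.

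Several facts of the whole series bear on these genes. The mapped bases per sample, worked out from FPKM and mapped bases, were 3.10 to 5.29 Gb, and members took 0.00673 to 0.0732% of the bases on sense rows. Mapped bases per member and sample had a median of 1088.5, about that of 11 reads of 99 bases, and 14 members had 1000 or more in every sample. The other members rest on few reads. Antisense rows of the members held 0.824 to 4.69% of their bases, highest in WT A, against 1.52 to 2.28% over all rows. Adipocyte markers were present in every differentiated sample: the summed FPKM of Fabp4, Cidec, Adipoq, Lpl, Pparg, Plin1, Cebpa and Cfd was 282 to 285 at day 0, 11896 to 37420 in the 4 differentiated samples and 16220 to 30024 in the 5 transduced samples. The 6 preadipocyte markers Ly6a, Pdgfrb, Pdgfra, Cd34, Dlk1 and Thy1 summed to 554 to 622 FPKM at day 0, 139 to 571 in the differentiated and 146 to 569 in the transduced samples, mostly Ly6a. At an adjusted p below 0.05 (limma), Pdgfra was higher in the 4 differentiated samples than at day 0 (21.7% of all genes). Pdgfrb, Cd34, Dlk1 and Thy1 were lower (18.6% of all genes). Markers of other cells were low: Ptprc was at 0 throughout, 5 leukocyte markers summed to 0.541 to 21.7 FPKM (nearly all Cd68), 4 endothelial markers to 0.353 to 4.00, 4 epithelial markers to at most 0.839 and 4 muscle markers to 0.414 to 12.2 (mostly Des). The targeted gene Jmjd1a, listed as Kdm3a, was not lower in the transduced samples: it was at 15.1 to 23.2 FPKM in the 6 untransduced samples and at 13.0 to 28.5 in the 5 transduced samples. Whether reads of the human transgene were counted there was not tested.

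Few members made up most of the signal. Of 62 members, 56 reached the minimum mean of 0.1 FPKM over the 11 samples that was set for testing, 18 a mean of 1 and 5 a mean of 5. Those below the minimum were Hist1h1t, Hist1h2aa (0 in every sample), Hist2h2ab, Hist3h2ba, Hist3h2bb-ps and Hist4h4, and 26 members were at 0 in some sample. Hist1h2bc had the highest mean (94.9 FPKM), followed by Hist1h1c (54.1), Hist1h4i (10.2), Hist2h2aa2 (7.94) and Hist1h2bg (5.91). Together, Hist1h2bc and Hist1h1c held 51.4 to 72.9% of the summed FPKM in each sample, and the 9 highest members 74.0 to 88.5%. The highest H3 members were Hist2h3c1 (4.14), Hist1h3g (2.32) and Hist2h3b (1.25), and after Hist1h4i the highest H4 members were Hist1h4h (3.12) and Hist1h4k (1.42). Next in H1 were Hist1h1d (1.29) and Hist1h1b (1.12), in H2A Hist3h2a (2.72) and Hist1h2ac (0.815), and in H2B Hist2h2be (3.99).

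**Figure D1:**
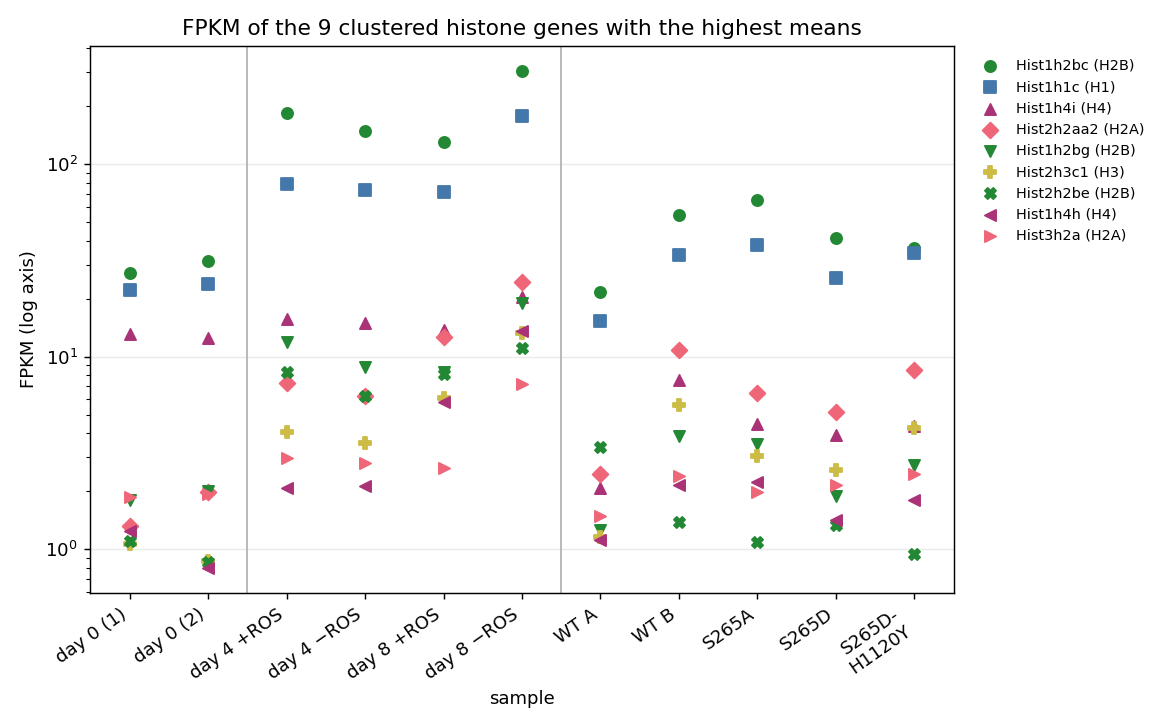
FPKM (log axis) of the 9 clustered histone genes with the highest means in each of the 11 samples, 1 point a gene and sample, coloured by histone type; vertical lines separate day 0, the 4 differentiated and the 5 transduced samples. Hist1h2bc and Hist1h1c stand above the other 7 genes in every sample and are highest at day 8 without ROS.

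Of the 56 tested members, 20 rose in the differentiated samples (21.7% of all genes) and none fell (18.6% of all genes), as the next paragraphs detail. Summed over all 62 members, FPKM was 95.4 and 102 in the day 0 samples, 359 at day 4 with ROS, 306 at day 4 without, 310 at day 8 with ROS and 708 at day 8 without. The mean of the differentiated samples was thus 4.27 times that of day 0, and their ranges did not overlap. The ratio was highest for H2B genes (5.93) and H1 genes (4.57), lower for H3 (2.99) and H2A (2.64), and lowest for H4 (1.73). As 2 genes dominate the H1 and H2B sums, these ratios are mostly theirs. Single genes weigh on the other sums too. Hist1h4i held 12.8 of 18.9 H4 FPKM in the day 0 mean and 16.2 of 32.7 in the differentiated mean. Hist2h2aa2 went from 1.66 to 12.6 in H2A sums of 9.78 and 25.8, and the Hist2h3c1 model from 0.967 to 6.74 in H3 sums of 6.77 and 20.3. The order of the ratios is thus partly that of single genes: by the median log2 difference over genes, H2A was lowest (0.23) and H4 was at 1.11. In these bulk samples, fewer cells of a type and less RNA per cell cannot be told apart.

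**Figure D2:**
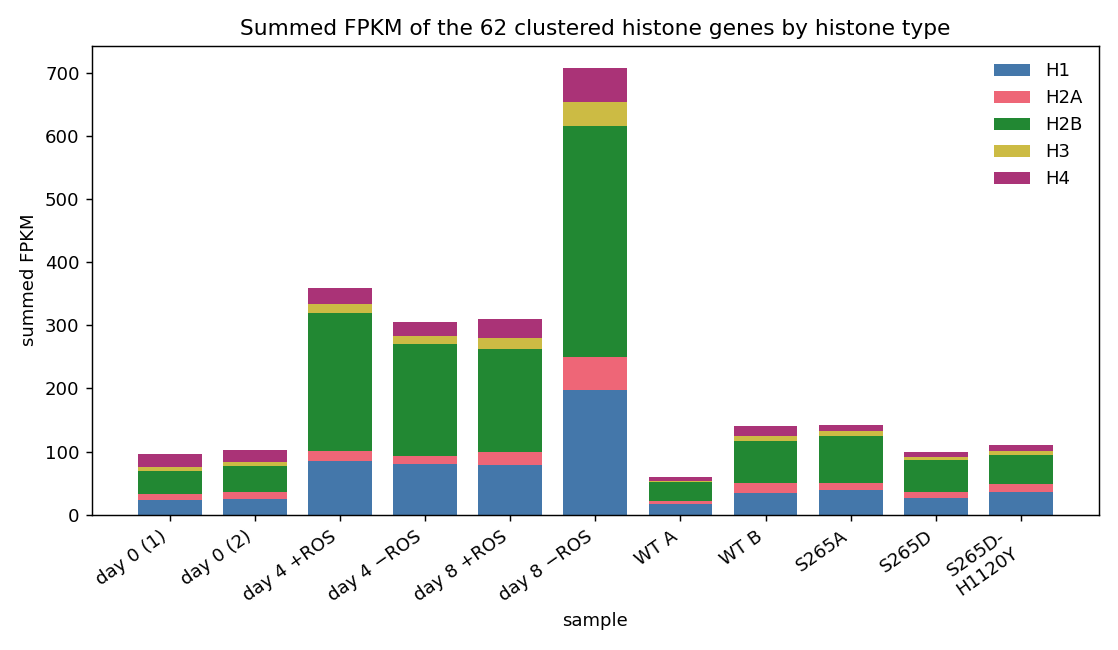
Summed FPKM of the 62 clustered histone genes in each of the 11 samples, stacked by histone type. The total is 95.4 and 102 at day 0, 306 to 708 in the 4 differentiated samples, highest at day 8 without ROS, and 58.9 to 142 in the 5 transduced samples.

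Between day 0 (2 samples) and the 4 differentiated samples, 20 of the 56 tested members were higher and 0 were lower at an adjusted p below 0.05 (limma on log2 of FPKM + 0.1, Benjamini-Hochberg over all 15369 genes tested). The spread in this fit comes from the day 0 pair and from the 4 differentiated samples. Those are 4 conditions with 1 sample each, so differences by day and ROS count as spread. Of all genes tested, 21.7% were higher and 18.6% lower, so the share of members that rose was above the background, while no member fell. The log2 difference had a median of 1.12 over the members, with 46 of 56 above 0, against −0.0048 over all genes. In 28 members every differentiated sample lay above both day 0 samples (32.2% of all genes) and in 1, Hist1h2ak, every one lay below (30.8% of all genes). The count of called members fell when either day 0 sample was left out. Such a fit has a single day 0 sample, and the share of all genes called in it is not given here. The drop is therefore not read as a trait of the members, and its cause was not tested.

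All 5 tested H1 genes rose, against 21.7% of all genes. Hist1h1c, which encodes the linker subtype H1.2, was at 22.1 and 23.7 FPKM at day 0, at 78.5 and 73.3 at day 4 with and without ROS, and at 71.8 and 178 at day 8. The day 0 samples were close to each other and every later sample was more than 3 times as high (log2 difference 2.01, SE 0.39, adjusted p = 0.0087). Hist1h1d (H1.3) went from 0.171 and 0.244 FPKM to 2.49, 2.00, 1.32 and 6.66 in the same order, the largest log2 difference of the members (3.14, SE 0.58, adjusted p = 0.00718). Hist1h1b (H1.5) was at 0.347 and 0.285 at day 0 and at 1.61 to 4.13 later (log2 difference 2.59, adjusted p = 0.00262). Hist1h1e (H1.4; 2.30) and Hist1h1a (H1.1; 1.89) rose as well, the latter from 0.540 and 0.171 FPKM. The sixth H1 gene, Hist1h1t, encodes the testis-specific linker histone and was at or below 0.129 FPKM in every sample.

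Of 16 tested H2B genes, 9 rose, against 21.7% of all genes. Hist1h2bc was at 27.0 and 31.5 FPKM at day 0, at 183 and 148 at day 4 with and without ROS, and at 131 and 304 at day 8. No differentiated sample was near the day 0 pair (log2 difference 2.63, SE 0.35, adjusted p = 0.00213). Hist2h2be, in which no hairpin was found in the searched window, had the smallest adjusted p of the members (0.000429): it went from 1.11 and 0.863 FPKM to 8.31, 6.25, 8.09 and 11.1 (log2 difference 2.95, SE 0.25). Hist1h2bg, whose promoter is printed above, went from 1.79 and 2.01 FPKM to 11.9, 8.81, 8.33 and 19.0 (log2 difference 2.52, adjusted p = 0.00246). Hist1h2bf (2.17), Hist1h2br (2.10), Hist1h2bp (2.21), Hist1h2bh (1.62), Hist1h2ba (1.53) and Hist1h2be (1.21) were also called, as log2 differences. Hist1h2ba encodes the testis H2B variant and reached 1.19 FPKM at most. Hist1h2bm had the lowest difference of the H2B genes (−0.63), at 0.334 and 0.504 FPKM at day 0 and 0.0514 to 0.538 later.

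Of 13 tested H2A genes, 2 rose, against 21.7% of all genes. Hist2h2aa2 was at 1.32 and 1.99 FPKM at day 0, at 7.28 and 6.23 at day 4 and at 12.6 and 24.5 at day 8 with and without ROS (log2 difference 2.67, SE 0.55, adjusted p = 0.0105). Hist1h2ac went from 0.179 and 0.103 FPKM to 1.19, 0.959, 1.03 and 4.47 (2.78, SE 0.61, adjusted p = 0.0129). Hist3h2a, the H2A gene of the Hist3 cluster, was at 1.87 and 1.93 FPKM at day 0 and at 2.99, 2.81, 2.64 and 7.23 later, above day 0 in all 4 samples but short of the threshold (log2 difference 0.87, adjusted p = 0.136). The median log2 difference of H2A genes was 0.23, the lowest of the types, and 6 of the 10 lowest members were H2A genes: Hist1h2ab, Hist1h2ae, Hist1h2ag, Hist1h2ak, Hist1h2an and Hist1h2ap, none of which passed the test. Hist1h2ag, for example, was at 0.987 and 1.40 FPKM at day 0 and at 0.373, 0.944, 0.618 and 1.59 later. These 6 genes lay between 0 and 1.97 FPKM in every untransduced sample, a level of few reads.

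Of 11 tested H3 genes, 3 rose, and 1 of 11 H4 genes, against 21.7% of all genes. The model of Hist2h3c1 includes an H2A gene and shares stretches with that of Hist2h2aa2, so the rises of the 2 may rest in part on the same reads. Hist2h3c1 went from 1.06 and 0.873 FPKM to 4.06, 3.55, 6.09 and 13.2 (log2 difference 2.49, limma adjusted p = 0.0105). Hist1h3g went from 0.906 and 1.04 FPKM to 4.50, 3.18, 3.60 and 9.44 (2.17, adjusted p = 0.00903), and Hist1h3i passed with a log2 difference of 1.32. Hist2h3b was at 0.775 and 0.208 at day 0 and at 0.524 to 4.43 later, and the groups overlapped. Hist1h3f (−0.35) and Hist1h3e (−0.24) were among the 10 lowest members, both at 0.704 FPKM or less in every sample. The highest H4 gene, Hist1h4i, changed little: it was at 13.1 and 12.5 FPKM at day 0 and at 15.7, 15, 13.7 and 20.3 later, 1.27 times as high in the mean and not called. Hist1h4h was at 1.24 and 0.803 at day 0, at 2.09 and 2.13 at day 4 and at 5.79 and 13.6 at day 8 (log2 difference 2.02, SE 0.77, adjusted p = 0.0763). Hist1h4k was called (1.12, adjusted p = 0.0487), with 1.22 and 0.752 FPKM at day 0 and 1.33 to 3.21 later, and it kept this call under 5 of 16 alternative settings. Hist1h4d (−0.24) was the only H4 gene among the 10 lowest. Calls of other named members were also lost under some of 16 alternatives: Hist1h2ac kept its call under 12 of the 15 that gave it a value, Hist2h2aa2 and Hist2h3c1 under 13 of 16, Hist1h1c and Hist1h3g under 14 and Hist1h1d under 15, while Hist1h1b, Hist1h2bc, Hist1h2bg and Hist2h2be kept theirs under all 16.

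**Figure D3:**
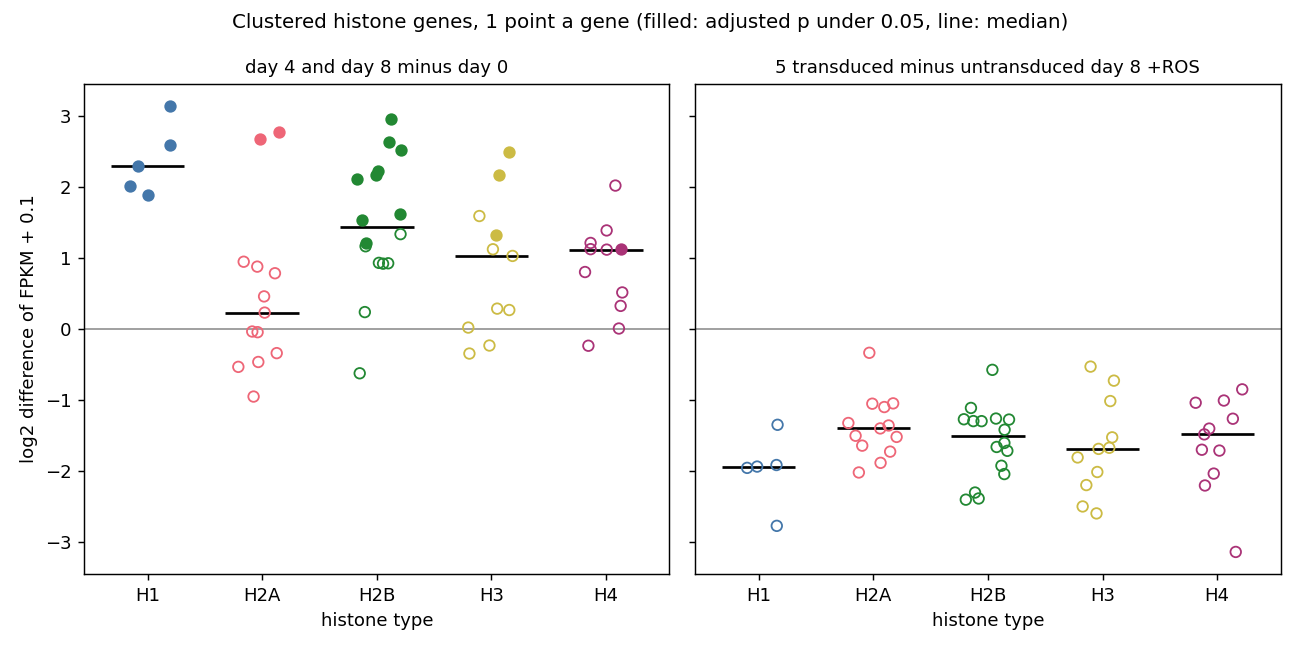
Log2 difference of FPKM + 0.1 for the 56 tested clustered histone genes by histone type, 1 point a gene, filled where the adjusted p was below 0.05, with the median as a line; left, the 4 differentiated minus the 2 day 0 samples, right, the 5 transduced minus the untransduced day 8 ROS plus sample. On the left 20 points are filled, all above 0, and the H1 median is highest (2.30); on the right all 56 points lie below 0 and none is filled.

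Genes that work with the replication-dependent histones were described by the same fit, in which 21.7% of all genes rose and 18.6% fell. Of 30 S phase genes, 6 rose and 2 fell in the differentiated samples (median log2 difference −0.03). The 4 most abundant, the replication clamp gene Pcna and the helicase genes Mcm6, Mcm2 and Mcm7, were not called, and Pcna was at 284 and 271 FPKM at day 0 and 273 to 368 later. The cyclin genes Ccne1 (1.34) and Ccne2 (1.08), which act at entry into S phase, rose. So did Rfc4 (0.75), Cdc45 (0.67), Prim1 (0.54) and Cdk2 (0.45), whereas Ccna2 (−0.95) and Rrm2 (−0.73) fell, all as log2 differences. Of 20 genes that transcribe or process histone mRNA, 2 rose and 1 fell (median −0.04): Lsm11 (1.02), of the U7 particle, and Zfp473 (0.70) rose and Srrt (−0.66) fell. Slbp, the most abundant of them, was at 76.4 and 67.3 FPKM at day 0 and at 62.6 to 84.9 later, with overlapping groups, and Ncbp1 and Nfyc were not called either. Of 20 histone chaperone genes, 2 rose and 7 fell (median −0.22). The H3-H4 chaperone Asf1b rose (1.59), as did Nap1l4 (0.53), and Npm1 (−1.30), Ssrp1 (−0.49), Nasp (−0.77), Nap1l1 (−0.87), Ipo4 (−0.95), Supt16h (−1.03) and Cabin1 (−0.58) fell, while the abundant Rbbp4 and Rbbp7 were not called. Of 13 histone variant genes outside the clusters, 11 were found, and 0 rose and 3 fell (median 0.02): Cenpa (−0.84), H2afy (−0.47) and H2afy2 (−1.93). Replication-independent H2afz, H3f3a, H3f3b and H1f0 were far more abundant than any clustered member at day 0 and not called. H2afz was at 450 and 472 FPKM at day 0 and at 527 to 634 later.

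Rosiglitazone was compared over days 4 and 8 together. The spread in this fit comes from the day 0 pair and from the difference of the ROS effect between the days. A gene whose ROS effect differs by day thus has a larger spread. No member was called, nor any of the 15369 genes (0% higher, 0% lower; limma), and at an unadjusted p below 0.05 there were 5 members, all lower with ROS, and 18.7% of all genes. The smallest adjusted p of the members was 0.162. The median log2 difference was −0.47 over the members, with 52 of 56 below 0, against −0.13 over all genes. The median depended on the day: without either day 8 sample the median was 0.24, and without either day 4 sample it was −1.19.

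The 2 days differed in direction. At day 4, summed FPKM without ROS was 0.853 times that with ROS, and at day 8 it was 2.29 times. At day 8 without ROS, 54 of 56 members were higher than with ROS (68.1% of all genes) and 39 were at least 2 times as high (14.3% of all genes), whereas 0 were at least 2 times as high with ROS (3.71% of all genes). By type, the day 8 sum without ROS over that with ROS was 2.51 for H1, 2.49 for H2A, 2.24 for H2B, 2.28 for H3 and 1.78 for H4. With 1 sample each there is no replicate check of these ratios. The difference between the ROS effects at day 8 and day 4 had a median of −1.40 over the members and −0.13 over all genes. No gene was called for it among members or all genes (0% higher, 0% lower; limma), 21 members and 16.3% of all genes had an unadjusted p below 0.05 and the smallest adjusted p was 0.275. The 1 residual degree of freedom of this fit comes from the day 0 pair, and the 4 conditions compared have 1 sample each. In the day 8 sample without ROS, the adipocyte marker Fabp4 was at 7631 FPKM, against 31402 with ROS. The adipocyte markers did not all go this way: Pparg was at 231, against 140 with ROS, and Cfd at 1887, against 1182, while the rest of that list was lower without ROS. The preadipocyte marker Ly6a was at 495, against 107, and the others of its list were higher without ROS too. Pcna was at 368, against 320. Their part in the result was not tested.

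Averaged over both ROS conditions, the day 8 minus day 4 log2 difference was positive for all 56 members and none passed the test. It had a median of 0.77 against −0.02 over all genes. None was called (1.07% of all genes were higher and 0.364% lower; limma), 20 members and 30.4% of all genes had an unadjusted p below 0.05, and the smallest adjusted p was 0.0697, for Hist1h2bn. With the variance trend of limma 2 members were called. The share of all genes under this setting is not given here, so this count is no result about the members. The spread in this fit, the same fit as for ROS, also holds the difference of the day 8 minus day 4 change between the ROS conditions. The positive average came mostly from the condition without ROS. With ROS, the summed FPKM went from 359 to 310, and 31 of 56 members were higher at day 8 (41.1% of all genes). Of the 56 members, 44 were at least 2 times as high at day 8 as at day 4 without ROS (8.92% of all genes), and 8 with ROS (6.38% of all genes). The median log2 difference was 1.38 without ROS and 0.10 with ROS. H2A genes, which had the lowest median between day 0 and the differentiated samples, had the highest medians of the types without ROS (2.02), and H2B genes the lowest (1.07). Hist1h1d differed in direction between the conditions: it was at 2.49 FPKM at day 4 and 1.32 at day 8 with ROS, but at 2.00 and 6.66 without. Hist1h4h was higher at day 8 in both conditions, 2.77 times with ROS and 6.36 times without.

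**Figure D4:**
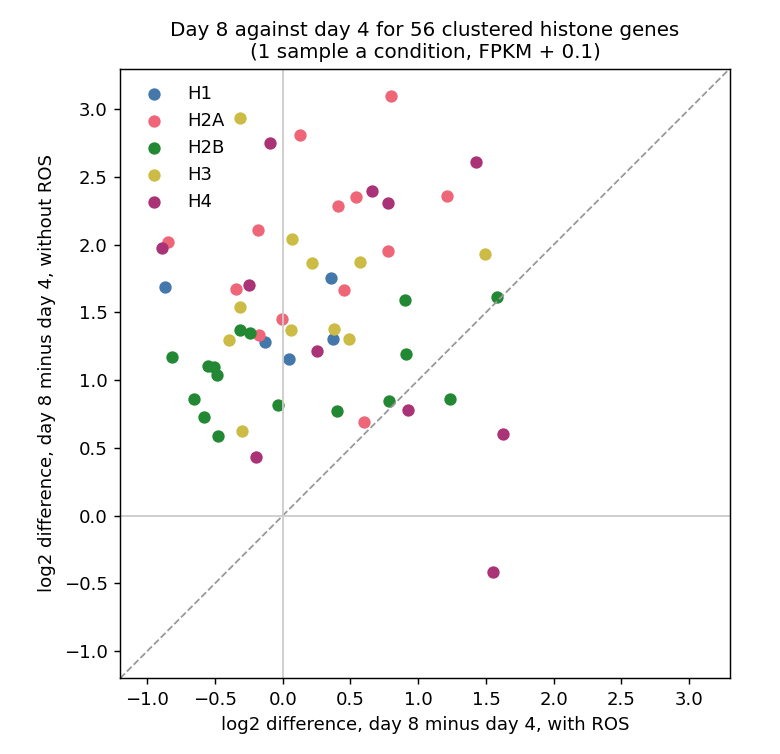
Log2 difference of FPKM + 0.1 between day 8 and day 4 with ROS (horizontal) and without ROS (vertical) for the 56 tested clustered histone genes, 1 point a gene coloured by type, 1 sample a condition; the dashed line marks equal differences. The points spread around 0 with ROS (median 0.10) and, but for 1 gene, lie above 0 without ROS (median 1.38).

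The members were lower in the transduced samples than in the 1 untransduced sample of the same day with ROS. Summed FPKM over the members was 310 in the untransduced day 8 ROS plus sample, and 58.9 and 140 in WT A and B, 142 in S265A, 98.4 in S265D and 110 in S265D-H1120Y. The untransduced sample lay above all 5 transduced samples in 50 of 56 members (23.8% of all genes) and below all 5 in 0 (29.3% of all genes). The log2 difference was negative for all 56 members, with a median of −1.57 against 0.06 over all genes. None was called at an adjusted p below 0.05, nor any of all genes (0% higher, 0% lower; limma with 1 untransduced sample), 36 members and 20.2% of all genes had an unadjusted p below 0.05, and the smallest adjusted p was 0.0617, for Hist1h1b. The spread in this fit comes from the 5 transduced samples, 4 forms of JMJD1A taken as 1 group, and the lone untransduced sample is assumed to vary like them. Without WT A, 12 members were called, all lower, and 700 of all genes (4.55%).

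Hist1h1b was at 2.55 FPKM in the untransduced sample and at 0.278, 0.281, 0.334, 0.327 and 0.225 in WT A, WT B, S265A, S265D and S265D-H1120Y (log2 difference −2.78, SE 0.25). Hist1h1c was at 71.8 and at 15.3, 33.5, 38.1, 25.7 and 34.6, and Hist1h2bc at 131 and at 21.7, 54.4, 65.1, 41.5 and 36.8, ranges that take in both day 0 samples of each gene. Hist1h4i, which hardly differed between day 0 and the differentiated samples, was at 13.7 FPKM and at 2.09, 7.53, 4.46, 3.91 and 4.38 after transduction, below both day 0 samples in all 5. By contrast, Hist2h2aa2 stayed above day 0 in all 5 (2.45 to 10.9 FPKM), and so did the Hist2h3c1 model (1.15 to 5.64). These are not 2 separate observations: the models of Hist2h2aa2 and Hist2h3c1 share stretches of 99 bases, so their values may rest in part on the same reads. S phase genes were lower as well: their summed FPKM was 1954 to 2238 in the differentiated and 839 to 1249 in the transduced samples, 28 of 30 had a negative log2 difference (median −1.09) and Slbp was at 33.7 to 57.5 FPKM, against 62.6 in the untransduced sample. The variants outside the clusters summed to 837 to 1114 FPKM, against 1662 to 1908 in the differentiated samples. None of these genes was called, and their part in the result was not tested. Antibiotic selection, the retroviruses and the knockdown came with every transduced sample and cannot be told apart.

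Between the forms of JMJD1A no member was called, nor any gene (0% higher, 0% lower in each comparison; limma). For S265A against WT the median log2 difference was 0.32 over the members and 0.01 over all genes, 0 members had an unadjusted p below 0.05, and the smallest adjusted p was 1. For S265D against WT the medians were 0.02 and 0.02, with 1 member at an unadjusted p below 0.05. For S265D-H1120Y against S265D they were 0.02 and −0.05, with 2 members. The WT samples themselves differed widely: summed FPKM in WT B was 2.37 times that in WT A, 30 members were at least 2 times as high in B (15.6% of all genes) and 5 in A (9.49% of all genes). Over the 56 members the median absolute log2 difference was 0.87 between WT A and B and 0.48 between the day 0 samples, against 0.49 and 0.13 over all genes tested. Hist2h2be went against the other abundant members, at 3.39 FPKM in WT A and 1.39 in WT B, with 1.09, 1.34 and 0.948 in S265A, S265D and S265D-H1120Y. S265A lay above both WT samples in 25 of 56 members (24.5% of all genes) and below both in 6 (22.3% of all genes), and S265D above both in 12 (23.2%) and below both in 12 (20.5%). With 1 sample of each mutant, no difference between the forms could be separated from the spread between WT A and B.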

How the data were processed

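Per the labels and the study's methods, the authors prepared TruSeq libraries from total RNA, sequenced them on an Illumina HiSeq, aligned reads with BWA to UCSC transcripts and to mm9, kept the alignment of lowest edit distance, realigned locally with an in-house tool and deposited strand-specific FPKM for each UCSC transcript. The deposited tables also hold the log2 and log10 of FPKM, which were not used, and mapped bases per transcript, a coverage signal, from which depth was worked out. Since a mapped base total is no count of reads, count models were not used.

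Members, gene lists and tests were chosen with earlier results of these data known. The authors' representative sense rows with a mean FPKM of at least 0.1 over 11 samples (15369 rows) were fitted with limma 3.58.1 (R 4.3.3) on log2(FPKM + 0.1). A fold change on this scale understates changes of low genes. Tests were two-sided, with Benjamini-Hochberg adjustment over all rows and a threshold of 0.05. Day 0 was compared with the 4 differentiated samples; ROS and day 8 against day 4 came from 1 fit with day as a factor and a ROS term; mutants were compared within the 5 transduced samples, whose spread rests on WT A and B; these were also compared, as 1 group, with untransduced day 8 ROS plus. The test of the ROS effect at day 8 against that at day 4 and a block of the ROS plus and minus courses, day 0 samples included, were added after seeing the data. The comparisons of day 0, of ROS and of transduced cells were tested on simulated data before use, with log2 changes of 3. The spread there was set and not taken from these data, and the other comparisons were not simulated. Named members were the 3 of each type with the highest means, the 10 lowest and 10 highest log2 differences against day 0, and called members, up to 10 a comparison; of the lists, the 4 most abundant genes. The other members and list genes named with a value were chosen after their values were seen. Sequence searches used Python 3.11.15 and Biopython 1.88; the NCBIM37 genome and GENCODE vM1 are of the build of the files, and promoters came from RefSeq. Alternatives were pseudocounts of 1 and 0.01, no minimum or a minimum mean of 1 FPKM, upper quartile and quantile scaling, the transcript of highest mean, a variance trend, 1 fit of all 11 samples and leaving out each sample.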

Additional observations from a re-analysis of the deposited data

Results flagged for a closer look

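Values were checked for a sample standing far from the others of its set, by Dixon's ratio of the gap to the range, in the 4 differentiated and the 5 transduced samples. Of 70 sets of values, 12 passed the 95% critical value, where chance gives about 1 in 20, and the sets are not independent of each other. Because the differentiated samples are 4 different conditions, a value apart is not an error of a replicate.

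In 9 of them the day 8 sample without ROS was highest, with the next highest differentiated sample far below. This held for the summed FPKM of H1 genes (197, next 85.4) and of all members (708, next 359), and for Hist1h1c (178, next 78.5), Hist1h1e (4.37, next 1.90), Hist1h2ab (1.49, next 0.346), Hist1h2ac (4.47, next 1.19), Hist1h2an (1.97, next 0.496), Hist1h2br (3.36, next 1.60) and Hist3h2a (7.23, next 2.99).

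Among the transduced samples, Hist2h2be was at 3.39 FPKM in WT A, with the next at 1.39. Hist1h2ak, a gene of very few reads, was at 0.110 FPKM in S265D-H1120Y and 0 in the other 4, and at 0 in day 4 without ROS, with the next differentiated sample at 0.174.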

How the results depend on the processing

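The 20 members called between day 0 and the differentiated samples, all higher, became 13 of the 18 tested with a minimum mean of 1 FPKM, and 5 (without the first day 0 sample) to 22 (without day 8 without ROS) when a sample was left out; the other alternatives kept the count within 1.5 times. Between day 8 and day 4, the 0 calls became 4 with a pseudocount of 1, 1 with a minimum mean of 1 FPKM and 2 with a variance trend, all higher; leaving out a sample gave 0 to 0. Between transduced and untransduced cells, the 0 calls became 1 with a pseudocount of 0.01, 4 without a minimum FPKM and 1 of 18 tested with a minimum mean of 1 FPKM, and 0 to 12 when a sample was left out (12 without WT A), all lower. The median ROS difference of −0.47 turned to 0.24 without the day 8 sample with ROS and to 0.24 without that without ROS, and was −1.19 without either day 4 sample. The median of S265D against WT, 0.02, was 0.46 without WT B. The count of 0 for ROS and for the JMJD1A forms held under every alternative run. The cause of these shifts was not tested. The counts of called members in this section are given without the share of all genes under the same setting. A shift in such a count is therefore not a result about the members. Of the values of single members and medians, 481 kept their direction and side of the threshold or moved by less than the spread, 34 moved, 25 lost a call, 13 gained one and 2 turned. Of all groups only WT carries replicate letters, so the numbers pair no samples; the ROS labels, which the day 0 samples carry too, were taken as a block after seeing the data, and with this block 16 members were called between day 0 and the differentiated samples, all higher, and Hist1h4k was not. Depth leaves most members with few reads, and their single values are correspondingly coarse.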
